A study of Danio rerio with 4 samples.

Results

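The development of zebrafish embryos (Danio rerio) between the end of gastrulation and the first day was followed with Rbm14 knocked down, by setting the library of rbm14 morpholino embryos at 24 hours post fertilization (hpf) against that of rbm14 morpholino embryos at 10 hpf. These are 2 of the 4 libraries of the study. The members are the 9551 of 28697 gene symbols that reached at least 5 TPM in either of the 2 libraries. TPM is a transcript abundance corrected for transcript length and scaled to the same total in each library, and it was summed over the transcripts of a symbol.

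The 4 groups were rbm14 morpholino embryos at 24 hpf, rbm14 morpholino embryos at 10 hpf, control morpholino embryos at 24 hpf and control morpholino embryos at 10 hpf. A morpholino is a synthetic antisense oligomer that binds a chosen mRNA and blocks its translation or its splicing. At the one-cell stage an rbm14 embryo received morpholinos against rbm14a and rbm14b at 4 ng each, a control embryo received 8 ng of a control morpholino, and the embryos of all 4 groups also received 300 pg of GFP mRNA as a marker of injection. Each group was 1 library of poly(A) RNA from 50 pooled whole embryos. No uninjected, rescued or mutant embryos were analysed here, so an effect of the morpholinos as such and an effect of less Rbm14 cannot be told apart. With 1 library in each group no difference below has a replicate check or a p-value, and each describes the libraries compared. A pool of whole embryos cannot separate fewer cells of a type from less RNA per cell.

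Rbm14 is an RNA-binding protein, known in mammals as a component of nuclear paraspeckles and a coregulator of transcription and splicing, and zebrafish have the paralogs rbm14a and rbm14b. Over these hours a normal embryo finishes gastrulation, forms somites and a neural tube, and begins to make muscle, blood, skin and a hatching gland. The maternal and gastrula programmes are shut down in the same period, and genes of differentiated cells are switched on.

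The targeted genes were listed in all 4 libraries. In rbm14 embryos rbm14a had 82.7 TPM at 24 hpf and 254 TPM at 10 hpf, and in control embryos it had 70.5 TPM at 24 hpf and 170 TPM at 10 hpf. Its paralog rbm14b had 28.2 TPM at 24 hpf and 19.3 TPM at 10 hpf in rbm14 embryos, against 21.0 and 28.8 TPM in control embryos at the same stages. A morpholino need not lower the mRNA it targets, so these levels are no check of the labels and no measure of the knockdown. The number of genes at 5 TPM or more was 8866 at 24 hpf and 6305 at 10 hpf in rbm14 embryos, against 7000 at 24 hpf and 7120 at 10 hpf in control embryos. The most abundant gene took 6.35% and 4.86% of all TPM in the rbm14 libraries at 24 and 10 hpf, and 4.11% and 4.49% in the control libraries. It was mt-co1, a mitochondrial cytochrome oxidase gene, at 24 hpf and eef1a1l1, a translation elongation factor gene, at 10 hpf. Sequencing depth is unknown.

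A stage change is the log2 of the TPM at 24 hpf plus 0.5 over the TPM at 10 hpf plus 0.5, after the 24 hpf library was rescaled by a trimmed mean of the gene ratios, so that 1 stands for 2-fold and positive values are higher at 24 hpf. The rescaling lowered rbm14 stage changes by up to 0.37 and raised control stage changes by up to 0.52. Because 0.5 TPM was added after it, the shift was smaller for genes with low TPM at 24 hpf. Changes are therefore relative to the bulk of genes. The difference of stage changes is the rbm14 minus the control value. Without rescaling it would be up to about 0.89 higher, and less so for genes with low TPM at 24 hpf. Because of that size, a difference of stage changes given below is followed by its value, or by whether its sign held, without rescaling. Medians of rbm14 and control embryos set side by side are rescaled unless stated, and small gaps between them can change order without rescaling. Levels in TPM are as deposited, without rescaling. Their order between the treatments at 24 hpf can therefore oppose the sign of the rescaled difference.

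In rbm14 embryos 3366 of the 9551 genes were at least 2-fold higher at 24 hpf, which is 35.2%. A further 2102, or 22.0%, were at least 2-fold lower, and 4083, or 42.7%, lay between. These shares are the background against which the counts of each gene group below are to be read. Genes near 0 at 10 hpf reach the floor only through the 24 hpf library. In lists made of such genes, a count of all higher largely follows from the floor. In mixed lists the same holds for the direction of each such gene. The reverse holds for genes near 0 at 24 hpf. Without rescaling, 3999 genes were higher and 1482 lower, so the share of higher among changed genes was 73.0% rather than 61.6%. At least 4-fold, 1985 genes were higher and 769 lower, and at least 16-fold, 574 were higher and 156 lower. In this pair rises were thus more common than falls at a floor of 5 TPM. At a floor of 20 TPM 1262 genes were higher and 1459 lower. The 24 hpf library also held more genes at 5 TPM or more than the 10 hpf library, unlike in the control pair, and depth is unknown. Under 1 TPM at 10 hpf and at 10 TPM or more at 24 hpf were 654 genes, and the reverse held for 77 genes. At 10 hpf 221 of the genes were listed at 0, and at 24 hpf 33.

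Among genes above 0 TPM in both rbm14 libraries and not named for a clone or locus, the highest stage changes belonged to skeletal muscle, hatching gland and embryonic blood genes. The hatching gland gene he2 and the notochord gene ctgfa, listed at 0 at 10 hpf, were passed over. Myogenin, myog, the transcription factor that drives the differentiation of muscle precursors, had 444 TPM at 24 hpf and 0.20 TPM at 10 hpf in rbm14 embryos, a stage change of 8.94. The muscle creatine kinase gene ckmb had 1389 and 2.13 TPM at 24 and 10 hpf (8.68), and atp2a1, the calcium pump of the sarcoplasmic reticulum, had 1468 and 2.37 TPM (8.63). Among thin filament genes, acta1a had 689 TPM at 24 hpf and 0.87 TPM at 10 hpf (8.61), actc1b 3164 and 6.18 TPM (8.52), acta1b 1056 and 2.03 TPM (8.34) and the troponin C gene tnnc2 985 and 1.92 TPM (8.30). The hatching enzymes digest the egg envelope from inside. Their gene he1a had 9521 TPM at 24 hpf and 15.9 TPM at 10 hpf (8.82), and he1b had 2904 and 5.97 TPM (8.44). The embryonic globin gene hbbe1.2 completed the 10 with 434.5 and 0.40 TPM (8.55). Each of the 10 was also past the rule in control embryos, with stage changes between 8.08 for hbbe1.2 and 9.64 for actc1b.

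**Figure D1:**
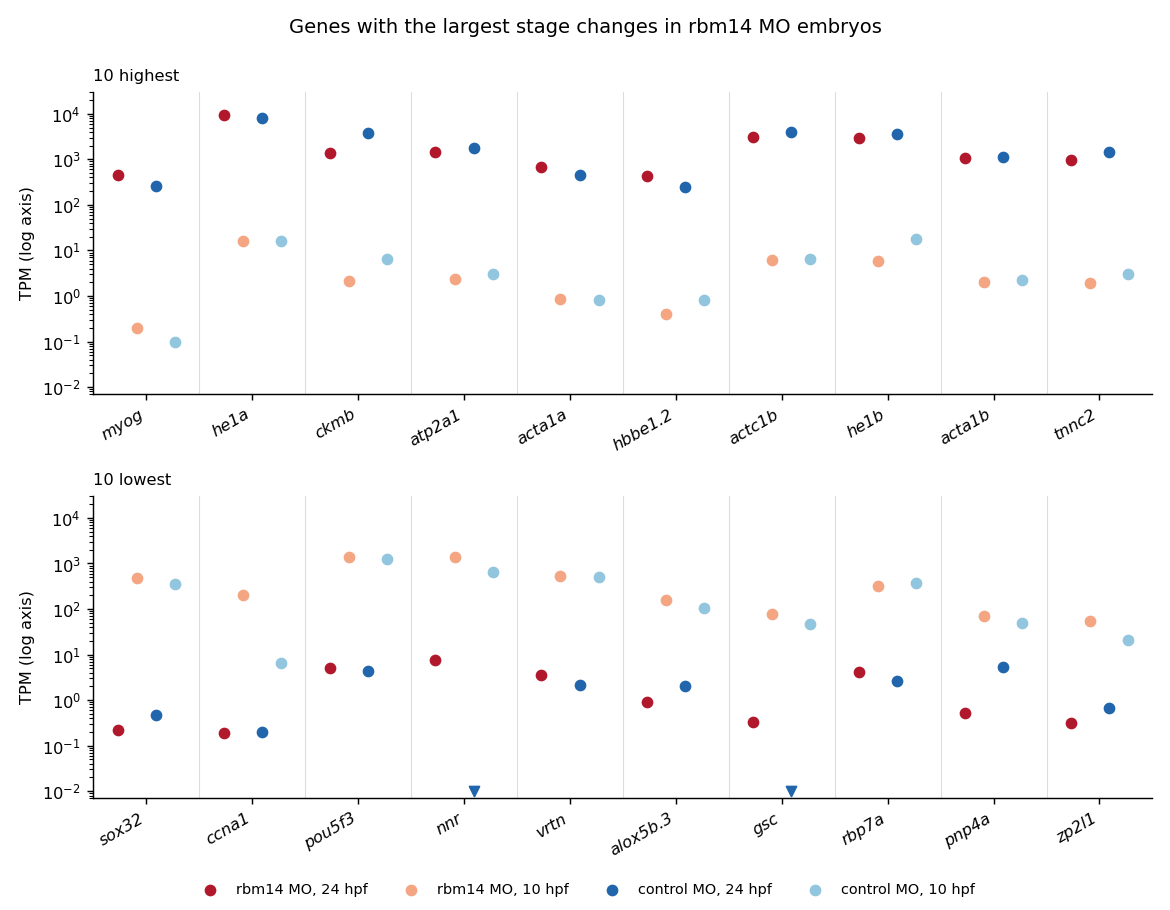
TPM on a log axis of the 10 genes with the highest (upper panel) and the 10 with the lowest (lower panel) stage change in rbm14 embryos; each point is 1 library of 50 pooled embryos, in the order rbm14 MO at 24 and 10 hpf, then control MO at 24 and 10 hpf, and triangles at the bottom mark values listed at 0. Clone and locus names and genes listed at 0 in an rbm14 library were passed over. For ccna1 the 10 hpf points lie far apart, at 205 TPM in rbm14 and 6.68 TPM in control embryos.

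Chosen in the same way, the lowest stage changes belonged to regulators of the blastula and gastrula and to maternal transcripts. The endoderm determinant sox32 had 0.22 TPM at 24 hpf and 471 TPM at 10 hpf in rbm14 embryos (−9.46), and the pluripotency factor pou5f3 had 5.10 and 1396 TPM (−8.29). The organizer transcription factor goosecoid, gsc, had 0.33 TPM at 24 hpf and 76.1 TPM at 10 hpf (−6.66). Vertnin, vrtn, had 3.59 and 522 TPM (−7.32), nnr 7.66 and 1376 TPM (−7.74), alox5b.3, of the lipoxygenase family, 0.89 and 155 TPM (−7.03), and rbp7a, of the retinol-binding proteins, 4.18 and 321 TPM (−6.43). The egg coat gene zp2l1 had 0.32 TPM at 24 hpf and 55.0 TPM at 10 hpf (−6.21).

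Several of these genes had other levels in control embryos. Levels at 24 and 10 hpf were 0.48 and 360.3 TPM for sox32 in control embryos (difference of stage changes −1.21, and −0.83 without rescaling), 2.03 and 108 TPM for alox5b.3 (−2.04, and −1.38) and 0.67 and 20.8 TPM for zp2l1 (−2.35, and −1.89). For nnr they were 0 and 647 TPM and for gsc 0 and 45.9 TPM, so no fold is given. For pou5f3, vrtn and rbp7a the difference was under 2-fold with and without rescaling. The remaining genes of the lowest 10 were ccna1 and pnp4a. The maternal cyclin gene ccna1 had 0.19 TPM at 24 hpf and 205 TPM at 10 hpf in rbm14 embryos (−8.31), against 0.20 and 6.68 TPM in control embryos (−3.19). The 24 hpf levels were alike, and the 10 hpf level was high only in the rbm14 library. The purine nucleoside phosphorylase gene pnp4a, later a marker of the silvery iridophores, had 0.53 and 69.2 TPM in rbm14 embryos (−6.26), against 5.24 and 48.9 TPM in control embryos (−2.62). There the 24 hpf library of control embryos stood higher.

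The course of rbm14 embryos was next set beside the same stages of control embryos, which share no library with it. In the control pair 2611 of 8784 genes (29.7%) were higher at 24 hpf and 2056 (23.4%) lower. Of the 3366 genes higher in rbm14 embryos, 2026 (60.2%) were past the rule in the same direction in control embryos, 448 lay between, 883 were under 5 TPM in both control libraries and 9 were past the rule as lower. Their median stage change was 2.35 in rbm14 embryos, which chose them, and 1.95 in control embryos. Of the 2102 genes lower in rbm14 embryos, 1387 (66.0%) were lower in control embryos as well, 611 lay between, 98 were under the floor and 6 were higher. Their median was −1.68 in rbm14 and −1.37 in control embryos. Genes chosen in the control pair gave the mirror image, with medians of 2.35 in rbm14 and 2.46 in control embryos for the 2611 higher genes, and −1.49 and −1.58 for the 2056 lower genes. In each case the pair that chose the genes had the larger change. Across the 8282 genes at 5 TPM or more in both pairs, Spearman's rho between the stage changes was 0.888 and Pearson's r 0.920, as a description over genes, which are not independent replicates.

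**Figure D2:**
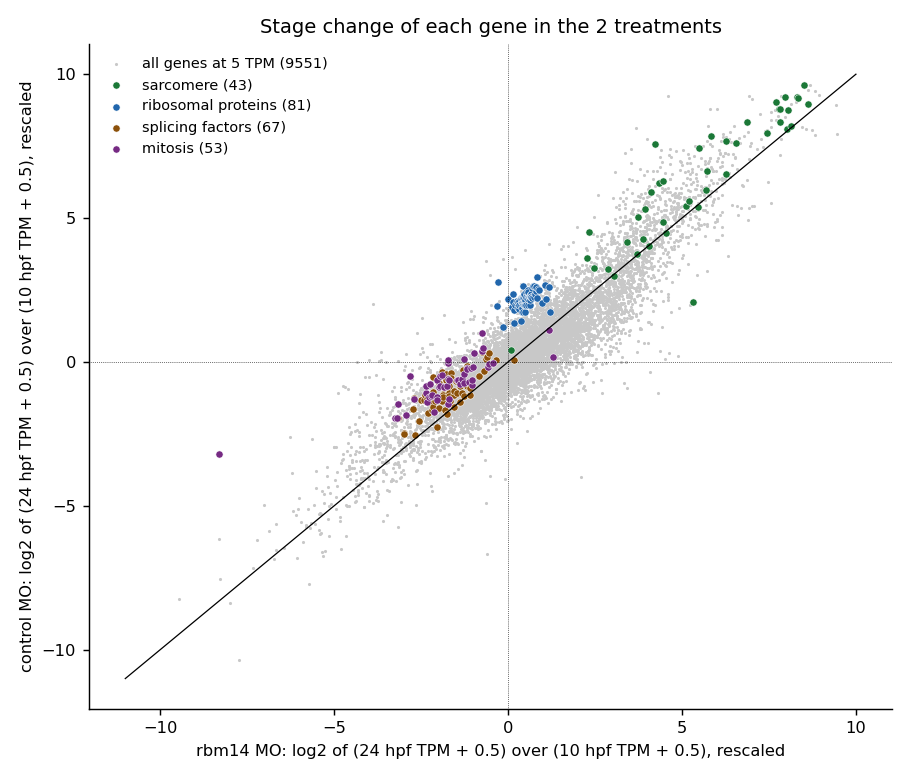
Stage change of each of the 9551 genes in rbm14 embryos (horizontal) and in control embryos (vertical), on the rescaled log2(TPM + 0.5) scale; each point is 1 gene, coloured for 4 gene lists, and the line marks equal changes. Sarcomere genes lie at the upper end in both treatments, and the ribosomal protein genes form a tight group above the line, with medians of 0.50 in rbm14 and 2.2 in control embryos.

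Over the 9551 genes, the difference of stage changes was at least 2-fold in the positive direction for 1198 genes (12.5%) and in the negative direction for 1042 (10.9%), with a median of 0.036. Counted over the 10053 genes at 5 TPM or more in any of the 4 libraries these numbers were 1286 (12.8%) and 1185 (11.8%), and 4404 and 318 without rescaling. None of these differences was tested. Genes named for a clone or locus, or listed at 0 in any of the 4 libraries, were passed over in the ranking that follows. Among the rest, the widest positive difference belonged to isg15, a ubiquitin-like modifier known from the interferon response. It had 99.4 TPM at 24 hpf and 17.6 TPM at 10 hpf in rbm14 embryos, against 0.43 and 17.2 TPM in control embryos, a difference of 6.09. Levels of isg15 were thus nearly equal at 10 hpf and far apart at 24 hpf. The secretory cell regulator bhlha15 had 56.8 and 2.15 TPM in rbm14 and 3.14 and 5.95 TPM in control embryos (4.43), and flrt2, a leucine-rich repeat membrane protein, 13.9 and 0.04 TPM against 0.93 and 0.90 TPM (3.99). For ints2, a subunit of the Integrator complex, the levels were 9.13 TPM at 24 hpf and 10.3 TPM at 10 hpf in rbm14 embryos, against 0.76 and 24.4 TPM in control embryos (3.46). The sulfotransferase gene chst3a had 14.3 and 0.61 TPM in rbm14 and 1.5 and 2.16 TPM in control embryos (3.38).

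Ranked in the same way, the most negative differences included that of ccna1 (−5.12), described above. The others were of genes higher at 24 hpf in control embryos and less so, or not at all, in rbm14 embryos. The parvalbumin genes pvalb1 and pvalb4, listed at 0 at 10 hpf in rbm14 embryos, were passed over. At 24 hpf pvalb1 had 2.26 TPM in rbm14 and 33.2 TPM in control embryos, and pvalb4 1.02 and 13.95 TPM. The aerolysin-like gene aep1 had 8.32 TPM at 24 hpf and 0.04 TPM at 10 hpf in rbm14 embryos, against 126 and 0.15 TPM in control embryos (−4.44). The T-box gene eomesa had 6.65 and 8.31 TPM in rbm14 and 20.7 and 2.16 TPM in control embryos (−4.14). For s100t, of the S100 calcium-binding proteins, the levels were 13.5 TPM at 24 hpf and 60.1 TPM at 10 hpf in rbm14 embryos, against 20.1 and 9.78 TPM in control embryos (−3.98). The musculoskeletal nuclear protein gene mustn1b had 2.06 and 0.84 TPM in rbm14 and 14.1 and 0.37 TPM in control embryos (−3.93). All 10 of these differences kept their sign without rescaling.

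**Figure D3:**
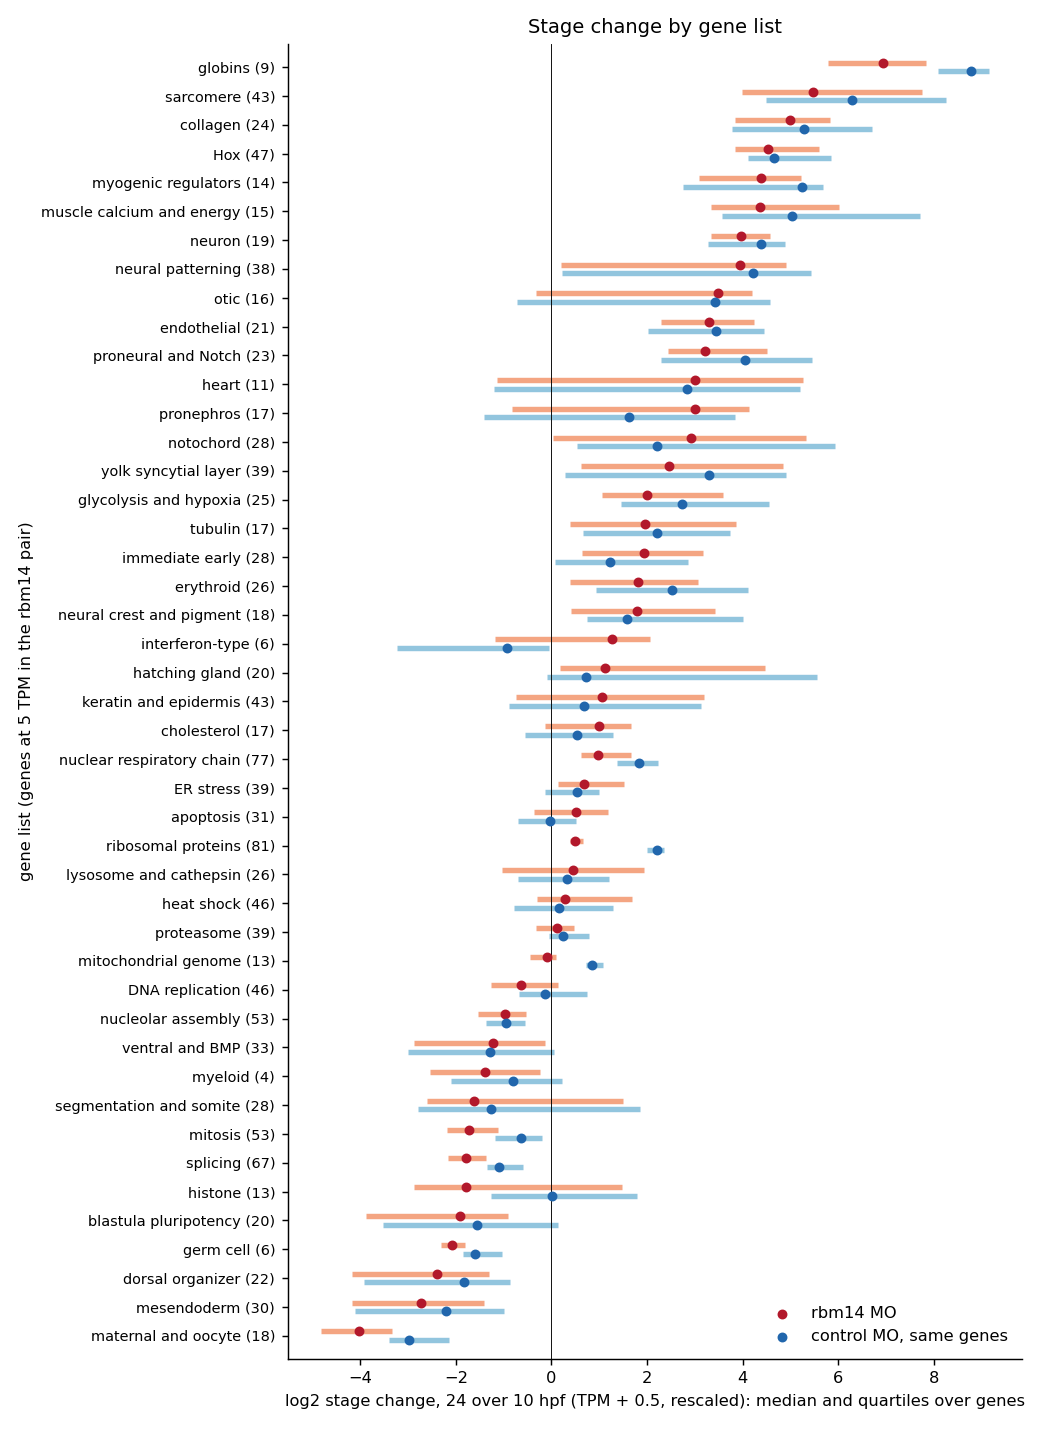
Median (point) and quartiles (bar) of the stage change over the genes of each list that reached 5 TPM in the rbm14 pair, with their number in parentheses; rbm14 embryos are drawn above control embryos, and values right of 0 are higher at 24 hpf on the rescaled log2 scale. Globin, sarcomere, collagen and Hox genes lie at the top with rbm14 medians of 6.94, 5.47, 4.99 and 4.53, and maternal and oocyte genes at the bottom with −4.02.

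Genes expressed before or during gastrulation were mostly lower at 24 hpf in rbm14 embryos. Of 28 matched maternal and oocyte genes 18 reached the floor of 5 TPM, and all 18 were lower at 24 hpf, with a median of −4.02. The 28 genes summed to 2315 TPM at 24 hpf in rbm14 embryos, of which ybx1 alone held 2259 TPM. Most of the others reached the floor only through the 10 hpf library, so this count largely followed from the floor. Egg coat genes were among them. The gene zp3b had 4.98 TPM at 24 hpf and 177 TPM at 10 hpf in rbm14 embryos, against 1.40 and 55.8 TPM in control embryos, while zp2.3 had 0.20 and 22.6 TPM in rbm14 embryos, against 0 and 32.5 TPM in control embryos. The zinc finger gene cth1 had 0.82 and 35.6 TPM in rbm14 and 1.04 and 15.01 TPM in control embryos. The control median over the same 18 genes was −2.98, and the difference was negative for 16 of 18 genes (median −0.99) and for 12 of 18 without rescaling (−0.43). For zp3b, cth1 and ccna1 the 24 hpf levels were within a few TPM of each other in the treatments. The 10 hpf levels of these genes were higher in rbm14 embryos, but not all genes of the list shared this. Among its genes at the floor, zp2.3, zp2.5, zp2.1, ccnb2 and rnf11a had lower 10 hpf levels in rbm14 than in control embryos. The same held by a narrow margin for zp3.2 and zar1l. The remaining genes, most of the 18, had higher 10 hpf levels in rbm14 embryos. Of 6 germ cell genes at the floor, 5 were lower and none higher (median −2.08). They included the germ plasm helicase vasa, ddx4, with 1.02 TPM at 24 hpf and 35.1 TPM at 10 hpf in rbm14 embryos, against 0.99 and 21.4 TPM in control embryos, and the germ cell gene nanos3, with 30.7 and 80.3 TPM against 24.0 and 62.9 TPM.

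Among blastula pluripotency genes, 13 of 20 were lower and none higher (median −1.90). Besides pou5f3 they included nanog, with 1.72 TPM at 24 hpf and 42.0 TPM at 10 hpf in rbm14 embryos and 0.74 and 25.9 TPM in control embryos. The Nodal signalling partner foxh1 had 10.57 and 370 TPM in rbm14 and 2.90 and 292.5 TPM in control embryos. Of 22 dorsal organizer genes, which specify the back of the embryo, 17 were lower and 3 higher (median −2.39). The BMP antagonist chordin, chd, had 1.57 TPM at 24 hpf and 106 TPM at 10 hpf in rbm14 embryos, against 0.90 and 84.5 TPM in control embryos. The BMP family member admp had 0.09 and 31.6 TPM in rbm14 and 0.02 and 27.4 TPM in control embryos, and the Wnt antagonist frzb 1.94 and 79.0 TPM against 0.26 and 92.3 TPM. A follistatin gene listed as fstb was higher instead, with 17.3 TPM at 24 hpf and 0 at 10 hpf in rbm14 embryos and 21.7 and 0.04 TPM in control embryos.

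The ventral and BMP list lay on the same side with a smaller median (−1.23), with 19 of 33 genes lower and 4 higher. The ventral homeobox gene vox had 78.4 TPM at 24 hpf and 1024 TPM at 10 hpf in rbm14 embryos, against 42.2 and 646 TPM in control embryos. Its relative ved had 19.5 and 272 TPM in rbm14 and 7.53 and 373 TPM in control embryos. Other genes of the list that were lower were eve1 (9.34 and 368 TPM at 24 and 10 hpf in rbm14 embryos), the chordin protease inhibitor szl (0.89 and 45.5 TPM) and the ventral Wnt ligand wnt8a (11.6 and 266 TPM). The homeobox gene msx2b was higher, with 38.2 TPM at 24 hpf and 1.24 TPM at 10 hpf. The ligand gene bmp4 lay between, with 8.09 and 12.32 TPM in rbm14 embryos (−0.92) and 4.2 and 12.8 TPM in control embryos (−1.03). The medians of the organizer list and of the ventral list were −1.83 and −1.28 in control embryos over the same genes. Without rescaling the organizer medians were −2.09 in rbm14 and −2.32 in control embryos, and the ventral medians −0.86 and −1.80.

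Mesendoderm genes, which specify endoderm and mesoderm in the gastrula, were lower in 23 of 30 cases and higher in 2 (median −2.73). The endoderm gene sox17 had 1.02 TPM at 24 hpf and 51.5 TPM at 10 hpf in rbm14 embryos, the T-box gene tbx16 had 7.08 and 169 TPM, and the Nodal ligand ndr2 had 0.52 and 26.6 TPM. The notochord and tailbud gene ta, zebrafish brachyury, had 57.2 and 866 TPM in rbm14 and 52.8 and 664 TPM in control embryos. Foregut regulator foxa1 was higher, with 58.3 TPM at 24 hpf and 1.11 TPM at 10 hpf. Segmentation and somite genes were mixed, with 16 of 28 lower and 8 higher (median −1.62). The boundary gene mespaa had 2.03 and 29.2 TPM in rbm14 embryos and 1.28 and 28.7 TPM in control embryos, and the clock gene her1 had 11.09 and 102.5 TPM against 5.86 and 69.8 TPM. The somite differentiation gene meox1 was higher, with 61.8 TPM at 24 hpf and 2.68 TPM at 10 hpf, as was the Notch target her15.1, with 131 and 4.46 TPM.

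Hox genes, which set position along the body axis, were nearly all higher. Of the 47 at the floor 46 were higher and none lower, against 35.2% of all genes. Medians were 4.53 in rbm14 and 4.65 in control embryos, or 4.90 and 4.14 without rescaling. Many were near 0 at 10 hpf, and for those the direction followed from the floor. The 48 matched genes summed to 161 TPM at 10 hpf and 1924 TPM at 24 hpf in rbm14 embryos. In rbm14 embryos hoxd3a had 57.6 TPM at 24 hpf, hoxd4a 55.7 TPM and hoxb6b 45.4 TPM, and each was listed at 0 at 10 hpf. In control embryos hoxd3a had 68.9 and 0.02 TPM at 24 and 10 hpf, hoxd4a 39.9 TPM and 0, and hoxb6b 25.2 TPM and 0. The posterior gene hoxa9a had 82.5 and 0.49 TPM in rbm14 and 51.2 and 0.92 TPM in control embryos.

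Genes of the nervous system appeared in both treatments. All 19 neuron genes at the floor were higher (medians 3.97 in rbm14 and 4.39 in control embryos, or 4.33 and 3.88 without rescaling). With 27.6 TPM at 10 hpf summed over the 45 matched genes in rbm14 embryos, this count largely followed from the floor. The RNA-binding protein elavl3, a marker of new neurons, had 78.5 TPM at 24 hpf and 0.45 TPM at 10 hpf in rbm14 embryos, against 23.9 and 0.67 TPM in control embryos. The motor and sensory neuron gene isl1 had 49.3 and 0.35 TPM in rbm14 and 25.9 and 0.17 TPM in control embryos. The vesicular acetylcholine transporter slc18a3a had 23.6 TPM at 24 hpf and 0 at 10 hpf in rbm14 embryos, and 15.3 TPM and 0 in control embryos. For rtn1a the 24 hpf order was the other way, with 31.6 and 0.54 TPM in rbm14 and 48.2 and 3.42 TPM in control embryos. The difference of stage changes was negative for 11 of the 19 neuron genes (median −0.13), and without rescaling for 3 (0.73). Of 23 proneural and Notch genes 19 were higher and 1 lower (median 3.22). Most of the 19 reached the floor only through the 24 hpf library, so this count also largely followed from the floor. The bHLH gene neurod4 had 65.2 TPM at 24 hpf and 0.10 TPM at 10 hpf in rbm14 embryos, against 111 and 0.31 TPM in control embryos. Its relative atoh1a, needed for cerebellar precursors and hair cells, reached 15.9 TPM in rbm14 and 48.7 TPM in control embryos at 24 hpf and was listed at 0 at 10 hpf in both.

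Neural patterning genes fell into a larger set that was higher (26 of 38) and a smaller one that was lower (9), with a median of 3.94. The SoxB gene sox21a had 315 TPM at 24 hpf and 0.56 TPM at 10 hpf in rbm14 embryos, against 444 and 2.49 TPM in control embryos, and sox1b had 136 and 0.89 TPM against 134 and 0.35 TPM. The forebrain gene foxg1a had 100.2 TPM at 24 hpf and 0.54 TPM at 10 hpf in rbm14 embryos, against 66.2 and 0.67 TPM in control embryos, and the hindbrain gene mafba 122 and 1.19 TPM against 93.8 and 1.97 TPM. The hypothalamus gene nkx2.1 and the eye gene rx1 had 33.5 and 23.5 TPM at 24 hpf and were listed at 0 at 10 hpf in rbm14 embryos. In neural crest and pigment, 12 of 18 genes were higher and 2 lower (median 1.78). The crest regulator sox10 had 31.1 TPM at 24 hpf and 0.35 TPM at 10 hpf in rbm14 embryos and 26.8 and 0.24 TPM in control embryos. Pteridine pigment synthesis is started by the enzyme encoded by gch2, which had 15.7 and 0.60 TPM in rbm14 and 88.5 and 0.55 TPM in control embryos, and the melanophore regulator mitfa had 6.44 and 0.01 TPM against 9.13 and 0.33 TPM. The difference of stage changes was −3.40 for gch2, and −2.52 without rescaling. Over the 18 genes it was negative for 13 (median −0.43), and without rescaling for 6 (0.43).

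No lens gene reached 5 TPM in an rbm14 library, out of 39 crystallin and other lens fibre genes matched. In the control pair 11 of them reached the floor and all 11 were higher at 24 hpf. The crystallin gene crybb1, chosen here after its values were seen, had 1.0 TPM at 24 hpf and 0.15 TPM at 10 hpf in rbm14 embryos, against 13.6 and 0.20 TPM in control embryos. Values of 0.43 to 3.75 TPM were listed for these 11 genes at 24 hpf in rbm14 embryos, and of 5.69 to 14.5 TPM in control embryos. These 11 reached the floor through the control library at 24 hpf, and no lens gene reached it in an rbm14 library. The gap between the ranges was therefore fixed by the choice, and the direction in control embryos largely so. Over all 39 matched genes, summed TPM at 24 and 10 hpf was 17.95 and 10.24 in rbm14 embryos, and 119 and 8.12 in control embryos.

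Muscle genes were higher at 24 hpf nearly throughout. Of the 66 sarcomere genes matched, 43 reached the floor, 42 of these were higher at 24 hpf and none lower, and the median was 5.47. The exception, the tropomyosin gene tpm3, named here because it was the only one, had 163 TPM at 24 hpf and 118 TPM at 10 hpf in rbm14 embryos. With tpm3 included, the 66 matched genes summed to 178 TPM at 10 hpf in rbm14 embryos, so this count largely followed from the floor. Together the sarcomere genes took 1.40% of all TPM at 24 hpf and 0.02% at 10 hpf in rbm14 embryos, and 1.68% and 0.02% in control embryos. The slow myosin heavy chain gene smyhc1 had 546 and 1.0 TPM in rbm14 embryos and 323 and 1.09 TPM in control embryos, the fast myosin gene myhz1.3 had 411 and 0.71 TPM against 440 and 0.97 TPM, and the fast light chain gene mylpfa had 1219 and 3.28 TPM against 2401 and 5.28 TPM. Over the same 43 genes the control median was 6.29. The difference was negative for 38 of 43 genes with a median of −0.78, but it was 0.10 without rescaling, with 20 of 43 negative.

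All 15 muscle calcium and energy genes at the floor were higher. Medians were 4.37 in rbm14 and 5.03 in control embryos, or 4.72 and 4.52 without rescaling. The 30 matched genes summed to 31.3 TPM at 10 hpf in rbm14 embryos, so this count largely followed from the floor. The creatine kinase gene ckmb reached 1389 TPM at 24 hpf in rbm14 embryos and 3849 TPM in control embryos. The fast-muscle calcium buffer pvalb2 had 66.1 TPM at 24 hpf and 0.30 TPM at 10 hpf in rbm14 embryos, against 388 and 0.75 TPM in control embryos, and the calsequestrin gene casq2 had 48.4 and 0.09 TPM against 55.7 and 0.13 TPM. Of 14 myogenic regulators 12 were higher and none lower (median 4.38). Most of the 12 reached the floor only through the 24 hpf library, so this count also largely followed from the floor. The myosin chaperone hsp90aa1.1 had 314 and 0.96 TPM in rbm14 and 169 and 0.44 TPM in control embryos, and myomaker, listed as tmem8c, which fuses myoblasts, had 94.8 and 0.40 TPM against 55.3 and 0.35 TPM. At 24 hpf myog had 444 TPM in rbm14 and 261 TPM in control embryos. The difference was negative for 11 of the 14 regulators (median −0.32), but without rescaling for 1 of 14 (0.57). In heart, 7 of 11 genes were higher and 3 lower (median 3.0). All 7 were under 5 TPM at 10 hpf in rbm14 embryos, so their direction followed from the floor. The myosin light chain gene cmlc1 had 181 TPM at 24 hpf and 0.79 TPM at 10 hpf in rbm14 embryos, against 203 and 0.78 TPM in control embryos, and myl7, the regulatory light chain of the heart, had 27.22 TPM and 0 against 28.8 and 0.04 TPM.

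Globin genes had the highest median of all lists, 6.94 over 9 genes, all of them higher. The list summed to 10.99 TPM at 10 hpf in rbm14 embryos, so the floor left little room for a lower gene. Globin paralogs are close in sequence, so the level of a single copy is uncertain. The embryonic gene hbae3 had 1462 TPM at 24 hpf and 3.54 TPM at 10 hpf in rbm14 embryos, against 3809 and 10.5 TPM in control embryos. The beta chain gene hbbe3 had 1622 and 5.0 TPM in rbm14 and 4316 and 9.66 TPM in control embryos. For hbbe1.1 the 24 hpf levels were 98.9 TPM in rbm14 and 2266 TPM in control embryos, and for hbbe1.2 the order was the other way, 434.5 TPM and 245 TPM. Summed, the list took 0.40% of TPM at 24 hpf in rbm14 embryos and 1.25% in control embryos. The control median was 8.79, and the difference was negative for 8 of 9 genes (median −2.15) and for 7 of 9 without rescaling (−1.26). With a pseudocount of 0.1 TPM the median difference of the globin list was −1.20.

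Other blood genes had smaller stage changes than the globins. Of 26 erythroid genes 16 were higher and 5 lower. Their medians were 1.80 in rbm14 and 2.53 in control embryos, or 2.16 and 2.06 without rescaling. The heme synthesis enzyme alas2 had 27.5 TPM at 24 hpf and 0.52 TPM at 10 hpf in rbm14 embryos, against 43.2 and 0.54 TPM in control embryos. The erythroid regulator gata1a had 9.60 TPM and 0 in rbm14 and 12.5 and 0.04 TPM in control embryos, and the red cell anion exchanger slc4a1a had 9.02 and 0.13 TPM against 28.1 and 0.20 TPM. Endothelial genes were higher in 18 of 21 cases (medians 3.29 in rbm14 and 3.44 in control embryos, or 3.64 and 2.97 without rescaling). Of the 18, all but lmo2 were under 5 TPM at 10 hpf in rbm14 embryos, so this count largely followed from the floor. The vascular regulator etv2 had 49.3 TPM at 24 hpf and 0.12 TPM at 10 hpf in rbm14 and 31.8 and 0.25 TPM in control embryos. The only endothelial gene that was lower was sox17, which also marks the gastrula endoderm. In the myeloid list 4 of 23 matched genes reached the floor, and none was higher. In the control pair 6 reached it, 3 of them higher and 2 lower. The lysozyme gene lyz, of white blood cells, had 2.11 TPM at 24 hpf and 0 at 10 hpf in rbm14 embryos, against 14.1 and 0.53 TPM in control embryos, and the neutrophil peroxidase gene mpx 0.31 TPM and 0 against 5.65 and 0.13 TPM. Both reached the floor only in control embryos at 24 hpf, so a lower rbm14 level followed from how they were picked. Genes under the floor in both pairs went either way at 24 hpf. In rbm14 and control embryos spi1b had 2.52 and 1.09 TPM, mpeg1.1 3.94 and 3.89 TPM, and mfap4 0.19 and 3.88 TPM. Of the genes at the floor in the rbm14 pair, 2 were lower, cebpb and lcp1. The gene lcp1, an actin bundler of white blood cells and of other early cells, had 1.83 and 24.9 TPM in rbm14 embryos and 1.38 and 70.6 TPM in control embryos.

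Skin genes were mixed. Among 43 keratin and epidermis genes 22 were higher and 8 lower (median 1.05). The claudin gene cldni, a tight junction gene, had 337 TPM at 24 hpf and 0.89 TPM at 10 hpf in rbm14 embryos, against 387 and 0.86 TPM in control embryos. The keratin gene krtt1c19e, of basal skin cells, had 17.6 TPM at 24 hpf and 0 at 10 hpf in rbm14 embryos, against 82.4 and 0.24 TPM in control embryos, and the ionocyte regulator foxi3b 42.4 and 0.70 TPM against 53.6 and 0.97 TPM. The list as a whole took 6.78% of TPM at 24 hpf and 4.46% at 10 hpf in rbm14 embryos, and 4.95% and 4.48% in control embryos. All 24 collagen genes at the floor were higher (medians 4.99 in rbm14 and 5.29 in control embryos, or 5.35 and 4.77 without rescaling). The 44 matched collagen genes summed to 12.84 TPM at 10 hpf in rbm14 embryos, so this count largely followed from the floor. The fibrillar chain gene col1a1a had 458 TPM at 24 hpf and 0.92 TPM at 10 hpf in rbm14 embryos, against 579 and 1.77 TPM in control embryos, and the cartilage and notochord chain gene col2a1a had 343 and 0.74 TPM against 389 and 0.99 TPM.

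Of 28 notochord genes 20 were higher and 7 lower (median 2.93). The matrix protein gene ctgfa had 273 TPM at 24 hpf and 0 at 10 hpf in rbm14 embryos, against 179 and 0.47 TPM in control embryos, and the caveolin gene cav3, of muscle and notochord, 57.0 and 0.12 TPM against 112 and 0.16 TPM. Hatching gland and secretory genes were higher in 11 of 20 cases and lower in 1 (median 1.13). The 11 include the troponin gene tnni1c, which also stands in the sarcomere list. The cathepsin gene ctslb had 3272 and 13.9 TPM in rbm14 embryos, against 1533 and 28.3 TPM in control embryos, and he2 had 293 TPM and 0 against 163 and 0.50 TPM. The 24 hpf order was the other way for he1b, with 2904 TPM in rbm14 and 3662 TPM in control embryos, and for agr2, with 32.2 and 50.8 TPM. The difference was positive for 10 and negative for 10 of the 20 genes (median 0.05, and 0.93 without rescaling). With ctslb, he1a and he1b, the list took 1.87% of TPM at 24 hpf and 0.22% at 10 hpf in rbm14 embryos, and 1.51% and 0.23% in control embryos.

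Of 39 yolk syncytial genes, which carry yolk lipids and plasma proteins to the embryo, 26 were higher and 7 lower. Their medians were 2.45 in rbm14 and 3.29 in control embryos, or 2.82 and 2.77 without rescaling. The retinol carrier rbp4 had 219 TPM at 24 hpf and 0.33 TPM at 10 hpf in rbm14 embryos, against 425 and 0.90 TPM in control embryos, while apolipoprotein B, apoba, had 138 and 1.14 TPM against 73.6 and 5.16 TPM. The apolipoprotein gene apoa1b was abundant throughout, with 5481 and 775 TPM in rbm14 and 6778 and 1570 TPM in control embryos. In the pronephros 9 of 17 genes were higher and 4 lower (median 2.99). All 9 were under 5 TPM at 10 hpf in rbm14 embryos, so their direction followed from the floor. The 4 include slc9a3r1, a different gene matched as a synonym of the list name slc9a3. The difference was positive for 9 of the 17 genes (median 0.20), and without rescaling for 14 (1.07). The distal transporter slc12a3 reached 19.3 TPM in rbm14 and 11.9 TPM in control embryos at 24 hpf. At 10 hpf it was listed at 0 in rbm14 embryos, so no fold is given. In the otic list 11 of 16 genes were higher and 4 lower (median 3.48). The otolith matrix gene oc90 had 49.9 and 0.28 TPM in rbm14 embryos and 16.4 and 0.65 TPM in control embryos, and starmaker, stm, was lower, with 7.61 and 107 TPM against 4.42 and 160 TPM.

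Ribosomal protein genes had smaller stage changes in rbm14 than in control embryos, with and without rescaling. In rbm14 embryos 4 of 81 genes were higher at 24 hpf and none lower, below the 35.2% of all genes, with a median of 0.50. In control embryos 81 of 81 were higher with a median of 2.2. The 4 were rpl5a, with 268 TPM at 24 hpf and 90.4 TPM at 10 hpf in rbm14 embryos and 321 and 140 TPM in control embryos, rps2 (4326 and 1483 TPM against 6762 and 1583 TPM), rpl34 (325 and 118 TPM against 416 and 130 TPM) and faua (560 and 209 TPM against 839 and 190 TPM). At 24 hpf the list took 11.5% of TPM in rbm14 and 18.0% in control embryos, and at 10 hpf 6.41% in rbm14 and 5.82% in control embryos. The difference of stage changes was negative for 81 of 81 genes (median −1.65) and, without rescaling, for 80 of 81 (−0.76). Without rescaling 27 of the 81 were higher in rbm14 embryos, with a median of 0.86.

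**Figure D4:**
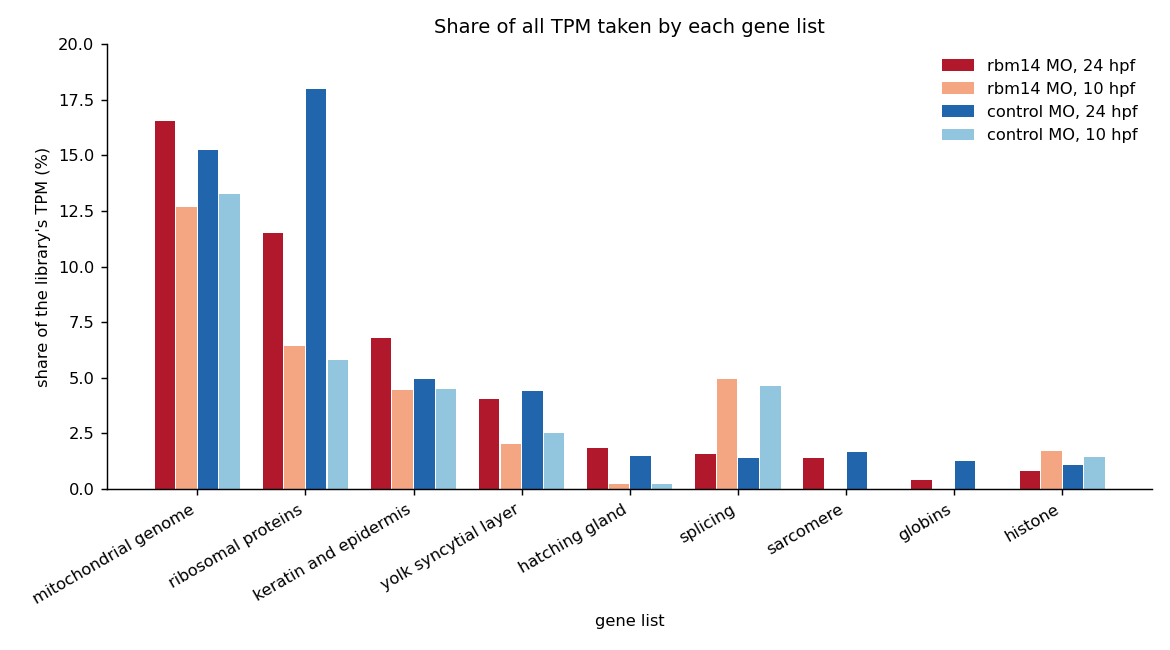
Share of each library's summed TPM, in percent, taken by 9 gene lists; the bars of a list stand for the rbm14 MO libraries at 24 and 10 hpf and then the control MO libraries at 24 and 10 hpf, 1 library each. At 24 hpf ribosomal protein genes took 11.5% in rbm14 and 18.0% in control embryos, and globins 0.40% and 1.25%.

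Respiratory chain genes of the nucleus also had smaller stage changes in rbm14 than in control embryos, but only on the rescaled scale. Of 77 nuclear genes 37 were higher and none lower in rbm14 embryos (median 0.97), while 67 of 77 were higher in control embryos (median 1.83). The difference was negative for 75 of 77 genes (−0.74), but its median was 0.15 without rescaling. Then 56 of the 77 were higher in rbm14 and 54 in control embryos. The respiratory chain gene ndufa4 had 23.2 TPM at 24 hpf and 0.08 TPM at 10 hpf in rbm14 embryos, against 90.6 and 0.65 TPM in control embryos, and ndufs4 had 18.3 and 1.80 TPM against 18.1 and 2.92 TPM. None of the 13 genes of the mitochondrial genome was past 2-fold in rbm14 embryos (median −0.10, and 0.27 without rescaling), and 5 were higher in control embryos (median 0.86), but none without rescaling (0.33). The difference was negative for 13 of 13 genes (median −1.17), and without rescaling for 8 of 13 (−0.28). They took 16.5% of TPM at 24 hpf and 12.7% at 10 hpf in rbm14 embryos, and 15.3% and 13.3% in control embryos. Among glycolysis and hypoxia genes 20 of 25 were higher and 1 lower. Their medians were 2.00 in rbm14 and 2.74 in control embryos, or 2.35 and 2.24 without rescaling. The muscle aldolase aldoab had 148 and 0.26 TPM in rbm14 and 206 and 0.26 TPM in control embryos, and the glucose transporter slc2a1a had 40.9 and 0.03 TPM against 8.66 TPM and 0.

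Splicing and mitosis genes were mostly lower at 24 hpf, and most nucleolar assembly and DNA replication genes were not past 2-fold. Of 67 splicing genes 59 were lower at 24 hpf in rbm14 embryos and none higher, against 22.0% of all genes, with a median of −1.78. In control embryos 38 of 67 were lower (median −1.10). The difference was negative for 61 of 67 genes (−0.72), but it was 0.17 without rescaling, with 24 of 67 negative. Then 50 of the 67 were lower in rbm14 and 55 in control embryos. The hnRNP gene hnrnpa0b had 856 TPM at 24 hpf and 5908 TPM at 10 hpf in rbm14 embryos and 885 and 4949 TPM in control embryos. The spliceosome gene prpf31 had 24.6 and 154 TPM in rbm14 and 15.5 and 129 TPM in control embryos, and snrpa, of the U1 particle, 213 and 1100 TPM against 248 and 1110 TPM. Together the splicing genes took 1.58% of TPM at 24 hpf and 4.96% at 10 hpf in rbm14 embryos, and 1.39% and 4.62% in control embryos. Nucleolar and ribosome assembly genes were lower in 25 of 53 cases and never higher, with medians of −0.97 in rbm14 and −0.96 in control embryos. These medians were −0.62 and −1.47 without rescaling, with 18 genes lower in rbm14 and 41 in control embryos. Nucleolin, ncl, had 394 and 1581 TPM in rbm14 and 244 and 1373 TPM in control embryos.

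Mitosis genes were lower in 44 of 53 cases and higher in 2 (median −1.72). Over the same genes the control median was −0.64, and in the control pair 16 of 52 were lower. The contrast in counts rested on the rescaling, as without it 33 of the 53 were lower in rbm14 and 35 in control embryos. The kinesin kif23, of the dividing cell's midzone, had 17.1 TPM at 24 hpf and 129 TPM at 10 hpf in rbm14 embryos, against 16.9 and 94.7 TPM in control embryos. The chromosomal passenger gene cdca8 had 16.8 and 121 TPM in rbm14 and 21.0 and 83.1 TPM in control embryos, securin, pttg1, 18.5 and 104 TPM against 24.6 and 49.7 TPM, and the mitotic cyclin ccnb1 163 and 602 TPM against 238 and 587 TPM. The difference was negative for 51 of 53 genes (median −1.04), and without rescaling for 34 of 53 (−0.15). DNA replication genes were lower in 14 of 46 cases and higher in 5 (median −0.64, and −0.13 in control embryos), with a difference of −0.65, or 0.22 without rescaling. The cell cycle inhibitor cdkn1a had 151.5 TPM at 24 hpf and 8.36 TPM at 10 hpf in rbm14 embryos (3.74), against 7.88 and 6.66 TPM in control embryos (0.72). The 10 hpf levels of cdkn1a were close, and the 24 hpf levels were far apart. The origin licensing gene cdt1 had 12.8 TPM at 24 hpf and 146 TPM at 10 hpf in rbm14 embryos, against 10.2 and 105 TPM in control embryos, and its partner cdc6 had 48.2 and 247 TPM against 54.0 and 267 TPM. Of 13 histone genes 8 were lower and 4 higher (median −1.79, and 0.01 in control embryos). The median difference was −1.14, and −0.25 without rescaling. The linker histone h1f0, of differentiated cells, was higher, with 1763 and 130 TPM in rbm14 and 2935 and 330.0 TPM in control embryos, and h2afx was lower, with 250 and 1049 TPM against 304 and 346 TPM.

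Apoptosis genes were higher in 10 of 31 cases, near the 35.2% of all genes, and lower in 3. Their median was 0.51, and −0.03 in control embryos, with a difference of 0.36, or 1.22 without rescaling. The effector caspase casp6 had 32.4 TPM at 24 hpf and 4.68 TPM at 10 hpf in rbm14 embryos, against 18.5 and 10.98 TPM in control embryos. The anti-apoptotic bcl2l10 was lower in both, with 36.0 and 144 TPM in rbm14 and 24.3 and 117 TPM in control embryos. Immediate early genes were higher in 18 of 28 cases and lower in 4 (median 1.94, and 1.23 in control embryos). The AP-1 gene junba had 82.5 and 0.40 TPM in rbm14 and 30.9 and 0.30 TPM in control embryos. Of 41 interferon-type genes matched 6 reached the floor, 3 of them higher and 2 lower. Besides isg15, the exonuclease gene isg20 had 147 and 26.8 TPM in rbm14 and 28.2 and 23.1 TPM in control embryos, and ifit8 7.55 and 1.09 TPM against 0.12 and 0.81 TPM. For isg20 and ifit8, as for isg15, the 10 hpf levels of the treatments differed by less than 5 TPM, and the 24 hpf level was several times higher in rbm14 embryos. These are the 3 higher genes, and the list did not share this. The 2 lower genes were b2m, with 3.83 and 11.3 TPM in rbm14 and 10.1 and 27.1 TPM in control embryos, and zgc:123068, with 1.0 and 22.95 TPM against 1.67 and 59.7 TPM. Most of the list, rsad2 and mxa among it, was under the floor in the rbm14 pair.

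Stress chaperones showed no common direction. Of 46 heat shock genes 14 were higher, against 35.2% of all genes, and 6 lower (median 0.28, and 0.15 in control embryos). The small heat shock gene hspb1 was lower, with 260 TPM at 24 hpf and 3616 TPM at 10 hpf in rbm14 and 189 and 4475 TPM in control embryos, and its relative hspb11 was higher, with 56.6 TPM and 0 against 83.6 and 0.30 TPM. The inducible hsp70l had 40.1 and 2.85 TPM in rbm14 embryos, against 3.21 and 1.36 TPM in control embryos. Endoplasmic reticulum stress genes were higher in 15 of 39 cases, near the 35.2% of all genes, and lower in 2. Their median was 0.69, and 0.54 in control embryos, with a difference of 0.38, or 1.26 without rescaling. The amino acid response gene asns had 15.6 and 1.24 TPM in rbm14 and 5.64 and 3.27 TPM in control embryos.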

How the data were processed

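Messenger RNA of 4 pools of 50 zebrafish embryos was sequenced, 1 library per morpholino treatment and stage. The authors deposited TPM per Ensembl transcript (57596 in all) next to its gene symbol. The unit follows from the values, which sum to 1000000 in each library. Trimmomatic 0.30, HISAT2 2.0.1, HTSeq 0.6.1 and the build GRCz10 are named, per the submitters' processing notes, without roles. How TPM was computed, from which annotation release and with what strandedness is not given in the sources used here. Since TPM keeps no sequencing depth, depth is unknown and no counting interval was computed. A value of 0 may be a failed estimate, and no fold of a named gene is given against it. Counts and medians over lists and over all genes include genes listed at 0.

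TPM was summed by symbol, 14320 of 28697 symbols having more than 1 transcript. Overlapping and antisense genes cannot be told apart without known strandedness, and near-identical paralogs may share reads. Within each treatment the 24 hpf library was rescaled by a trimmed mean without weights. It used the log2 ratios of genes that reached 1 TPM at both stages and dropped 30% of ratios and 5% of levels at each end. After 0.5 TPM was added, a gene was past the rule when its change was at least 2-fold and its higher deposited value at least 5 TPM. Folds on this log2(TPM + 0.5) scale understate the change of low genes. No test was possible with 1 library per group.

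The members and the gene lists were chosen with earlier results of these data known. Of 1886 names in 47 lists, 1749 matched a symbol, 46 a synonym in the tables of RefSeq and gene names, and 91 none; a gene may stand in several lists. One gene and the list named for it are not reported here. Named were the 10 highest and 10 lowest genes of the rbm14 comparison, 5 and 5 of the difference between treatments, up to 6 members a list by absolute stage change, up to 5 a direction past the rule in opposite directions, up to 5 with a changed main transcript, and genes fixed by name. Clone and locus names and, for the highest and lowest genes and differences, values at 0 were passed over. A planned promoter search was not run, as no promoter table was used here. The reference assembly differed from the authors' build, so no coordinates or sequences are given. The alternatives were no rescaling, median-of-ratios scaling, pseudocounts of 0.1, 1 and 5 TPM, floors of 1 and 20 TPM, the most abundant transcript per symbol, and a fold of 4. The steps were checked on simulated data in which a small set of genes was changed, as many up as down, with mild noise. Far more genes were past 2-fold in the real pair, so the check does not show that the rescaling was right there. Python 3.11.15, pandas 2.3.3 and NumPy 2.4.6 were used.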

Additional observations from a re-analysis of the deposited data

Results flagged for a closer look

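Of the genes past the rule in both treatments, 15 changed in opposite directions. Of these, 10 have a symbol that is no clone or locus name, and 8 were named, at most 5 a direction. In each case the 1 library pair of rbm14 embryos moved one way and the 1 pair of control embryos the other, and the difference was not tested. Higher at 24 hpf in rbm14 and lower in control embryos were isg15 (difference of stage changes 6.09), the clock repressor bhlhe41 (2.69), C9orf69 (2.54), the endoplasmic reticulum chaperone partner dnajb9b (2.53) and the kinase gene MAP3K11 (2.45). Without rescaling all 5 stayed past 2-fold in opposite directions, with differences of 6.72, 3.53, 3.34, 3.35 and 3.25 in the same order. The gene bhlhe41 had 10.5 TPM at 24 hpf and 2.33 TPM at 10 hpf in rbm14 embryos, against 5.78 and 18.2 TPM in control embryos, and dnajb9b 8.07 and 2.35 TPM against 4.74 and 17.3 TPM. Lower in rbm14 and higher in control embryos were s100t (−3.98), the receptor gene gpr19 (−2.82) and the alcohol dehydrogenase gene adh5 (−2.03). Without rescaling these differences were −3.12, −2.01 and −1.16, and none of the 3 was past 2-fold in both treatments. There the stage changes of gpr19 in rbm14 embryos (−0.75) and of adh5 in rbm14 (−0.65) and control embryos (0.51) were under 2-fold, as was that of s100t in control embryos, by a narrow margin. For adh5 the levels were 22.6 TPM at 24 hpf and 35.9 TPM at 10 hpf in rbm14 embryos, against 46.3 and 32.5 TPM in control embryos.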

How the results depend on the processing

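No paired analysis was possible because each group was 1 library. Higher and lower counts beyond 1.5 times the main ones were as follows. Without rescaling, 3282 control genes were lower, and the difference was positive for 4404 and negative for 318 genes, so the share of positive calls was 93.3% rather than 52.0%. The higher share among calls was 73.0% rather than 61.6% in rbm14 and 38.2% rather than 55.9% in control embryos. A pseudocount of 5 TPM gave 2016 higher rbm14 genes, 1352 lower control genes, and 305 positive against 808 negative differences (27.4% positive). A floor of 1 TPM gave 6249 higher rbm14 genes, 4899 higher control genes and 2343 positive differences. At a floor of 20 TPM these were 1262, 1180 and 387, with 1459 lower rbm14 genes (46.4% of calls higher), 1196 lower control genes and 722 negative differences (34.9% positive). A fold of 4 gave 1985 higher and 769 lower in rbm14, 1622 and 640 in control embryos, and 191 and 242 differences. Of the rbm14 list medians, those of myeloid (1.474 at a floor of 1 TPM), pronephros (−0.786), otic (−0.056) and cholesterol genes (−0.031, these 3 at 20 TPM) and of the mitochondrial genome (0.27 without rescaling) changed sign. Of 274 stage changes of named genes past 2-fold, 272 stayed past it without rescaling and 260 at a pseudocount of 5 TPM. Of 135 such differences, 71 and 98 did, and none reversed sign. The median difference of 26 of 46 lists changed sign without rescaling, 33 being negative with it and 7 without. Depth was unknown, so levels near 0 could not be given a limit.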

Other observations

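Grouping genes by the leading letters of their symbols, which rests on no hand-made list, gave 33 families of at least 20 genes at the floor. The highest rbm14 medians belonged to col (4.72), sox (2.46), atp (1.5), c (1.31) and ap (1.25) symbols. The lowest belonged to rbm (−1.25), ddx (−0.86), znf (−0.81), med (−0.64) and cdc (−0.64) symbols. Of 29 rbm genes, which carry RNA-binding motifs, 20 were lower at 24 hpf and 1 higher, with a median of −1.01 in control embryos. The family includes the targeted genes rbm14a, which was lower (−1.98), and rbm14b, which lay between (0.18). Of 101 znf genes, which encode zinc finger proteins, 41 were lower and 9 higher, with a control median of −0.77.

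Few genes changed their main transcript. Among 2537 genes with at least 10 TPM in both rbm14 libraries and more than 1 transcript, 18 (0.71%) had a different most abundant transcript at each stage with at least 60% of the gene's TPM, against 30 of 2250 (1.33%) in control embryos. In both treatments the same change was seen for 3 genes, or 16.7% and 10.0% of these sets. For the planar polarity gene prickle1b the transcript ENSDART00000147955 had 10.2 TPM at 24 hpf and 1.42 TPM at 10 hpf in rbm14 embryos, while ENSDART00000067177 had 1.19 and 38.4 TPM. In control embryos the first had 5.75 and 0.26 TPM and the other 0.01 and 38.6 TPM, so the same change was seen there, in a gene that was under the limit of 10 TPM at 24 hpf. Of the elongation factor gene supt5h, ENSDART00000062676 had 28.8 and 10.1 TPM in rbm14 embryos, against 0.01 and 0.02 TPM in control embryos. Its other transcript ENSDART00000166846 had 2.54 and 55.4 TPM in rbm14 and 18.7 and 49.5 TPM in control embryos. How the authors' estimate divided reads between transcripts is not given in the sources used here.

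Of 26 lysosome and cathepsin genes 11 were higher at 24 hpf and 7 lower in rbm14 embryos (median 0.45, and 0.33 in control embryos). The cathepsin gene ctsll was lower, with 176 and 1480 TPM in rbm14 and 46.3 and 1510 TPM in control embryos, and the autophagy receptor sqstm1 was higher, with 103 and 9.83 TPM against 57.5 and 25.9 TPM. Of 17 cholesterol genes 8 were higher and 1 lower (median 0.99). The cholesterol exporter abca1a had 10.1 and 1.53 TPM in rbm14 embryos, against 3.47 and 8.59 TPM in control embryos. Of 17 tubulin genes 10 were higher and 1 lower (median 1.95), among them tuba1c, with 365 and 21.7 TPM in rbm14 and 605 and 36.6 TPM in control embryos. Most proteasome genes lay between, with 3 of 39 higher and none lower. Their medians were 0.11 in rbm14 and 0.25 in control embryos, or 0.48 and −0.26 without rescaling.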
